A study of Mus musculus with 8 samples.

Results

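Chek2, the checkpoint kinase that works downstream of Atm, was read in every non-polysomal library of mouse oocytes at nuclear envelope breakdown (NEBD) and in no polysomal library. It was 1 of 10 DNA damage checkpoint genes examined, namely Atm, Atr, Chek1, Chek2, Trp53, Trp63, Mdm2, Mdc1, Trp53bp1 and Rad17. The 10 genes were taken by exact symbol from a table of 25574 genes, and each symbol was found there. The study separated oocyte lysates on sucrose gradients and sequenced RNA from the polysomal part (P) and the non-polysomal part (NP), which holds ribosomal subunits, monosomes and stored mRNA particles. The comparison of P with NP asks which transcripts travelled with several ribosomes at that moment. The paper could not exclude that heavy stored particles sedimented with the polysomes. The top fraction of each gradient was left out, and the paper grants that it may have held some stored particles. There were 4 NP and 4 P libraries, taken from 4 independent profiles that were each split into both parts. All came from fully grown oocytes of CD1 mice 8 weeks old, primed with pregnant mare serum gonadotropin. The oocytes were isolated with 100 µM IBMX, which holds meiosis in arrest, then cultured for 180 min without it. Those that underwent NEBD were selected part way through this culture. At its end they were treated with cycloheximide at 0.1 mg/ml for 10 min. Each profile pooled 200 oocytes, so a lower value in a pool cannot be assigned to fewer oocytes with the transcript or to less transcript per oocyte. All libraries carry the cycloheximide treatment, which fixes ribosomes on mRNA, and how many mice gave a pool was not stated.

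The DNA damage checkpoint halts the cell cycle while broken or incompletely copied DNA is repaired. Atm is switched on by double-strand breaks and Atr by stretches of single-stranded DNA, and the pair then phosphorylate Chek2 and Chek1 respectively, which restrain the Cdc25 phosphatases and act on the p53 family. In mouse oocytes the p63 protein made from Trp63, on which Chek2 acts, is the known guardian of the resting follicle pool and eliminates oocytes with persistent breaks. Fully grown oocytes are known for a weak arrest in response to such damage.

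The values are FPKM, fragments normalized to gene length and to mapped reads, on a linear scale, so levels may be compared between genes per length. They measure the share of a gene within a library and not the number of molecules in a gradient part. Because every value of a gene is a whole number of equal steps, the reads behind each value could be recovered for all 10 genes. The recovered scaling number, a measure of depth, was 1299377 to 7594637 for the NP libraries and 2677946 to 4699328 for the P libraries. A step is called a read here, although the sources do not say whether it is a read or a pair. Summed over the recovered genes, the steps exceeded the scaling number in every library, with 5388157 against 3192245 in NP replicate 1. The 2 thus need not share a unit, and the reason was not tested. The limma-voom fit below took the scaling number as library size. Of the 14292 genes tested, between 8.64% and 18.9% were listed at 0 in an NP library and between 22.2% and 36.5% in a P library. The oocyte identity of the samples was checked with 15 oocyte genes, all of which were read, with a summed FPKM of 8007 to 16280 in NP libraries and 9425 to 38815 in P libraries. Of 18 granulosa and cumulus cell genes, 6 were at 0 in all libraries, namely Amhr2, Foxl2, Has2, Inhba, Npr2 and Ptx3. Another 9 passed the filter on mean FPKM. Cyp19a1 reached 75.2 FPKM in NP replicate 4 and 62.6 in P replicate 2, but had 0.190 in P replicate 3. Nr5a2 reached 61.4 FPKM in NP replicate 3 and 35.9 in P replicate 3, but had 0.487 in P replicate 4. Cyp11a1 reached 46.4 FPKM in NP replicate 4 and 17.9 in P replicate 4, but was at 0 in NP replicate 2. The list summed to 15.3 to 144 FPKM in NP libraries and 21.4 to 64.0 in P libraries. Among 6 blood and immune genes, Cd74, Hba-a1, Hba-a2, Lyz2 and Ptprc were at 0 in all libraries and Cd68 was read in 3 NP libraries. The part of these cells in the checkpoint values was not tested.

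The datasets were compared by limma on the log2(FPKM + 1) scale, keeping genes whose mean exceeded 0.1 FPKM in either dataset, and all 10 checkpoint genes passed this filter. Its p values measure the spread between these 8 libraries. The fit treated the libraries as independent, although NP and P are parts of the same 4 profiles. A fit with a replicate block is given with the alternatives. None of the 10 was called at an adjusted p below 0.1 (limma, Benjamini-Hochberg over all 14292 genes), where 0.021% of all genes tested were called. At an unadjusted p below 0.05 there was 1 checkpoint gene, Chek2, against 9.95% of all genes. For Chek2 all NP values were above all P values, and for the other 9 genes the datasets overlapped. Over all genes tested, 5.92% had every NP library above every P library and 0.357% the opposite. The log2 fold change of P over NP was below 0 for 7 checkpoint genes and above 0 for 3, with a median of −0.23 against −0.39 for all genes tested, 71.4% of which lay below 0. These scales are a choice, since the median of all genes moved to −0.018 after quantile normalization and to 0.57 after centring each library on its own median, and the median of the checkpoint genes moved with it to 0.33 and 0.73. Of the 7 genes below 0, Atm, Chek1 and Mdc1 turned above 0 under both scalings and Mdm2 after centring, while Chek2, Trp53 and Rad17 stayed below 0 under all alternatives. Relative to the median of all genes, 6 checkpoint genes lay above and 4 below.

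**Figure D1:**
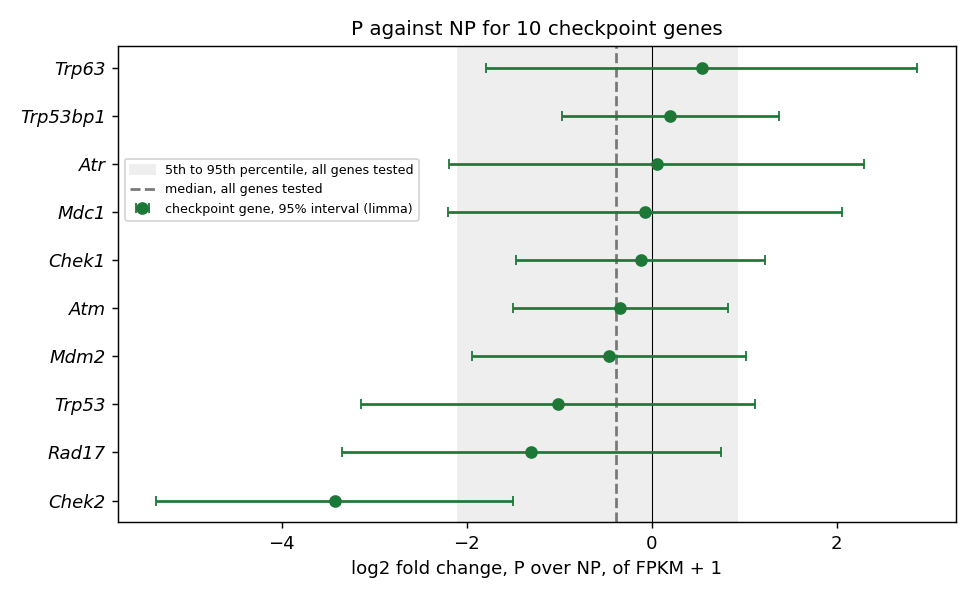
Log2 fold change of P over NP on the FPKM + 1 scale for each of the 10 checkpoint genes (points), with 95% intervals from limma (bars). The dashed line is the median of all 14292 genes tested (−0.39) and the grey band runs from their 5th to their 95th percentile (−2.09 to 0.92). The interval of Chek2 is the one that does not reach 0.

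The effector kinases showed the widest contrast among these genes. Chek2 lies on chromosome 5 of GRCm38 from 110840017 to 110874133 on the plus strand. Its FPKM was 18.3, 1.03, 14.4 and 21.0 in NP replicates 1 to 4 and 0 in each of the 4 P libraries. NP replicate 2 held the low NP value, and the datasets did not overlap. That library had the lowest depth, and 1 read of Chek2 stood for 0.343 FPKM in it. The part of depth in its low value was not tested. Behind these values stood 131, 3, 236 and 359 reads in NP and none in P. A count of 0 still allows 3 reads in a library, which for Chek2 corresponds to between 0.284 and 0.499 FPKM in the P libraries. Against the mean of these limits, 0.375 FPKM, Chek2 was at least 36.5-fold lower in P than its NP mean of 13.7 ± 8.87 (SD, n = 4). Such limits cover counting error only, because reads from amplified cDNA are not independent molecules.

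On the log2(FPKM + 1) scale the difference of Chek2 was −3.42 (standard error 0.90), and −2.97 with the P libraries set at their limits. A lower log2 fold change was found for 0.392% of all genes tested. The adjusted p of 0.376 (limma) did not pass the threshold, and it lay between 0.163 and 0.731 under the other processing choices applied to the FPKM values. Fitted instead to the recovered reads with limma-voom, Chek2 was called, with an adjusted p of 0.00577 (limma-voom), where 1.45% of 13326 genes were called lower in P. Chek2 was the only one of the 10 genes called in that fit. Leaving out NP replicate 2 raised the mean in NP to 17.9 FPKM. The pattern of Chek2, above 0 in all NP libraries and at 0 in all P libraries, was shared by 0.896% of the genes tested, 128 in number. Of these, 5 reached a mean of 13.7 FPKM or more in NP, namely Gm13391, Gas2, Actg2, Fam101a and Chek2, singled out after their values had been seen. That cut-off is the NP mean of Chek2 itself, so Chek2 is among them by definition, and 4977 of the genes tested reached it.

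Chek1, the kinase that Atr activates, lies on chromosome 9 from 36708482 to 36727065 on the minus strand. Its FPKM was 26.9, 26.2, 51.7 and 22.0 in NP and 31.1, 44.6, 14.8 and 27.6 in P. The ranges of the datasets overlapped in large part, with NP replicate 3 the highest library and P replicate 3 the lowest. The means were 31.7 ± 13.5 in NP and 29.5 ± 12.3 in P (SD, n = 4), a ratio of 0.93, and between 158 and 1749 reads stood behind each value. The log2 fold change was −0.12, with an interval from −1.47 to 1.23, so a P level between 0.361 and 2.34 times that of NP lay within the error. Chek1 exceeded Chek2 in 8 of 8 libraries, by a ratio between 1.05 and 25.5 in the NP libraries.

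The apical kinases differed from each other in level more than either did between the datasets. Atr, on chromosome 9 from 95857597 to 95951644 on the plus strand, had an FPKM of 15.4, 3.72, 14.8 and 17.3 in NP and of 26.1, 2.51, 80.9 and 2.31 in P. The P libraries thus lay on both sides of the NP libraries, and P replicate 3, with 2902 reads, held 72.3% of the P sum. The mean was 12.8 ± 6.14 in NP and 28.0 ± 37.0 in P (SD, n = 4). The ratio of 2.18 became 0.806 without P replicate 3. Its log2 fold change was 0.052 (standard error 1.04, limma adjusted p = 0.985). This turned to −0.049 with a pseudocount of 0.1 and to −0.081 with limma-voom, where the medians of all genes were −0.83 and −0.93. Part of the exons of Atr, 726 bases, is shared with the antisense gene 1700065D16Rik, whose mean FPKM was 5.40 in NP and 8.26 in P. The antisense gene Gm16794 shares 462 bases, and Gm24004, a small nuclear RNA gene on the same strand, 178. With an unstranded library, reads of Atr and of these genes cannot be separated there.

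Atm, on chromosome 9 from 53439149 to 53536740 on the minus strand, was the lowest checkpoint gene in NP. It had an FPKM of 1.82, 0.298, 2.62 and 0.178 in NP and of 1.32, 1.12, 0.196 and 0.0361 in P. Values of either dataset were spread over more than an order of magnitude and overlapped, and the last one rested on 1 read. The ratio of P to NP was 0.543 on the means, and between 0.366 and 0.871 when single libraries were left out. On the log2 scale the difference was −0.34 (standard error 0.54, limma adjusted p = 0.792). Atr exceeded Atm in 8 of 8 libraries, with a ratio of the means of 10.4 in NP and 41.9 in P.

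Rad17 loads the Rad9-Rad1-Hus1 clamp onto DNA, a step in the activation of Atr. It lies on chromosome 13 from 100617165 to 100651059 on the minus strand. The FPKM was 4.73, 7.57, 7.34 and 24.2 in NP and 2.54, 8.00, 7.75 and 0 in P. NP replicate 4 stood above all other libraries, and P replicate 4 had no read, which allows up to 0.394 FPKM. The log2 fold change of −1.30 (standard error 0.95, limma adjusted p = 0.642) was, next to that of Chek2, the lowest of the 10. The ratio of the means was 0.417, and 0.698 without NP replicate 4.

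Trp53bp1 and Mdc1 encode large adaptor proteins that gather on chromatin beside a break. Trp53bp1, on chromosome 2 from 121193281 to 121271407 on the minus strand, was the highest of the checkpoint genes in all 8 libraries. Its FPKM was 86.2, 65.7, 68.1 and 73.6 in NP and 73.5, 66.0, 155 and 66.5 in P. Apart from P replicate 3, the libraries lay within a narrow range that NP and P shared. The NP mean of 73.4 ± 9.16 (SD, n = 4) lay above that of 89.6% of the genes tested and the P mean of 90.2 ± 43.2 (SD, n = 4) above that of 92.3%. The ratio of 1.23 fell to 0.935 without P replicate 3. With between 1209 and 9749 reads in each library, the fold change of Trp53bp1 was 0.20 on the log2 scale, with an interval from −0.97 to 1.37. Exons of Trp53bp1 share 2130 bases with the opposite gene Tubgcp4, whose mean FPKM was 5.24 in NP and 10.6 in P. Among the 11374 genes whose NP or P mean exceeded 1 FPKM, those most like Trp53bp1 across the 8 libraries were Gm14133, Frmd3 and Fam135b, with Pearson's r of 0.985, 0.974 and 0.964 on the log2(FPKM + 1) scale, given as a description over libraries that differ in depth. All 3 were at 0 in the other P libraries and had their highest FPKM in P replicate 3, with 21.9, 5.71 and 8.08. Over the 7 libraries left without it, r was 0.869, 0.687 and 0.869. There Gm14133 and Fam135b were above 0 in NP replicate 1 alone.

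Mdc1, on chromosome 17 from 35841515 to 35859670 on the plus strand, had an FPKM of 2.91, 1.45, 6.83 and 5.80 in NP and of 0.401, 1.89, 3.43 and 22.2 in P. P replicate 4 held 79.5% of the P sum, and the other 3 P libraries were within or below the NP range. The ratio of the means was 1.64, but 0.449 without P replicate 4. Its fold change of −0.074 on the log2 scale, which weights single high libraries less, became 0.88 after median centring and 0.72 after quantile normalization, relative to medians of all genes of 0.57 and −0.018.

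The p53 family is represented by Trp63 and Trp53, and its ubiquitin ligase by Mdm2. Trp63, on chromosome 16 from 25683763 to 25892102 on the plus strand, had an FPKM of 3.70, 5.23, 12.5 and 0.800 in NP and of 0, 9.37, 24.3 and 11.1 in P. In P, 3 libraries exceeded 3 of the NP libraries, while P replicate 1 had no read, which allows up to 0.0761 FPKM. The means were 5.55 ± 4.97 in NP and 11.2 ± 10.0 in P (SD, n = 4). The ratio of the means was 2.02, between 1.23 without P replicate 3 and 3.45 without NP replicate 3. On the log2 scale the fold change of 0.54 had an interval from −1.79 to 2.87 (limma adjusted p = 0.835).

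Trp53, on chromosome 11 from 69580359 to 69591873 on the plus strand, had an FPKM of 2.63, 10.1, 4.59 and 12.7 in NP and of 2.05, 2.78, 15.1 and 0 in P. P replicate 3 was the highest of all 8 libraries and the other 3 P libraries were near or below the lowest NP value. P replicate 3 held 75.7% of the P sum, and the ratio of the means was 0.663 with it and 0.214 without it. This gave a log2 fold change of −1.01 (standard error 0.99, limma adjusted p = 0.691). Trp53 exceeded Trp63 in 2 of the 4 NP libraries and in 1 of the 4 P libraries.

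Mdm2, the ligase that marks p53 for degradation, lies on chromosome 10 from 117688888 to 117710758 on the minus strand. It had an FPKM of 28.7, 26.4, 37.6 and 15.8 in NP and of 8.69, 17.2, 46.9 and 16.2 in P. Here too P replicate 3 was the highest library and the other 3 P libraries were below 3 of the NP libraries. The ratio of the means was 0.822, and 0.518 without P replicate 3, and the log2 difference was −0.46 (standard error 0.69, limma adjusted p = 0.779). Mdm2 exceeded Trp53 in 8 of 8 libraries, by a ratio between 1.24 and 10.9 where Trp53 was read.

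**Figure D2:**
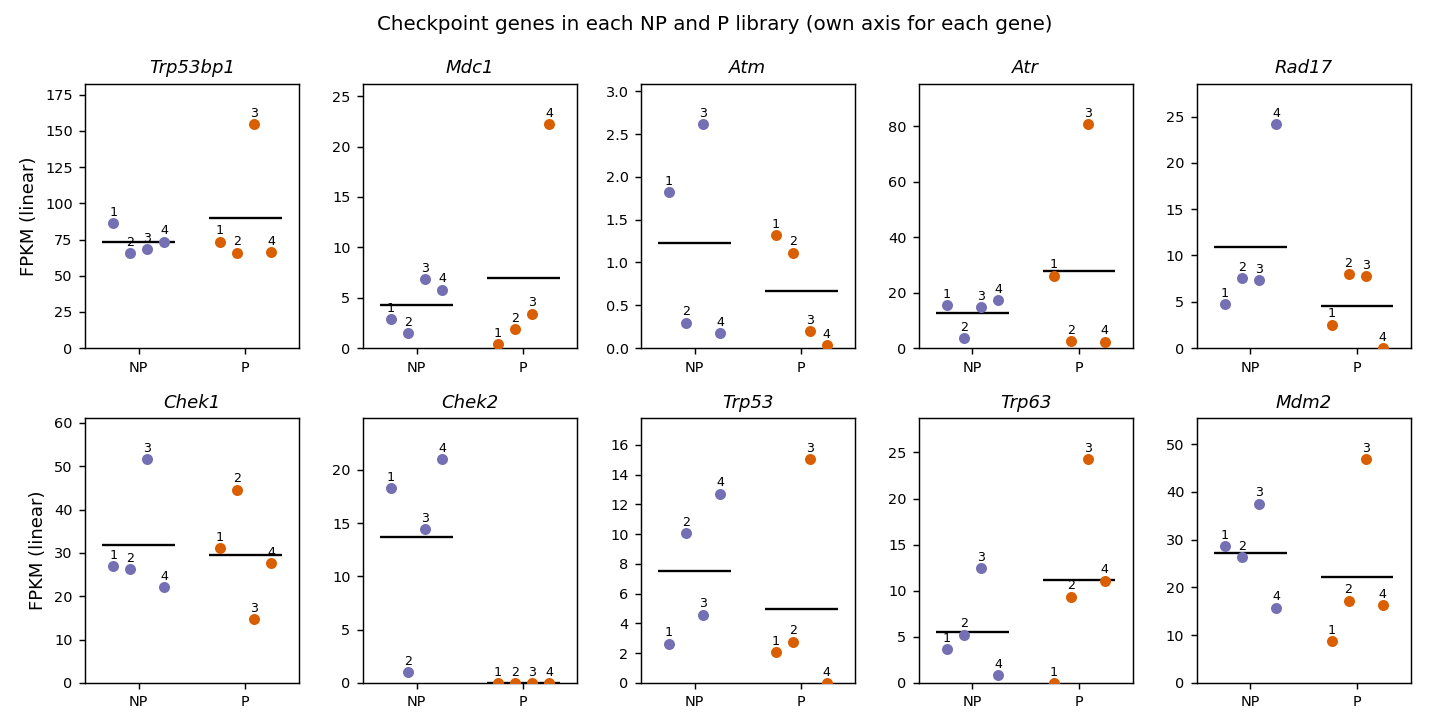
FPKM (linear, own axis for each gene) of the 10 checkpoint genes in the 4 NP (purple) and 4 P (orange) libraries. Numbers are replicates and black lines are means. Chek2 is at 0 in each P library, and P replicate 3 is the highest P library for Trp53bp1, Atr, Trp53, Trp63 and Mdm2.

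A single library, P replicate 3, carried the highest P value of 5 of the 9 genes read in P. The share of all genes tested that were highest in it is not given here, so the count is a description. The FPKM summed over the 10 genes was 348 in P replicate 3 and between 146 and 153 in the other P libraries, compared with 148 to 221 in NP. Without Trp53bp1 the sum was 193 in P replicate 3, between 72.2 and 87.5 in the other P libraries, and 82.0 to 152 in NP. Over all genes tested the median FPKM was 1.57 in P replicate 3, within the range of 1.05 to 3.02 of the P libraries, and Chek1 had its lowest value there. Without it, the log2 fold changes of Trp53bp1, Atr and Trp63 moved to −0.089, −0.84 and −0.045, while that of Chek1 moved to 0.16. The part of this library in the values was otherwise not tested.

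**Figure D3:**
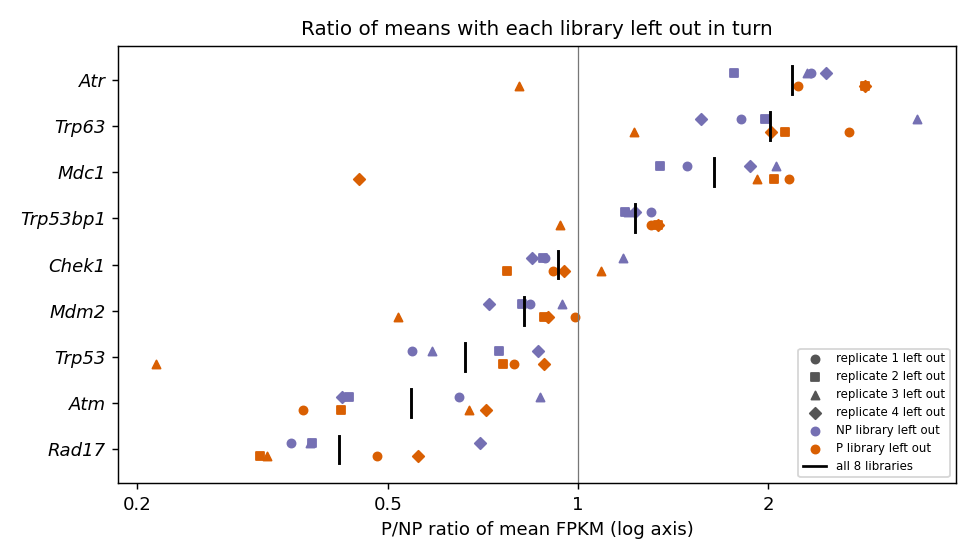
P/NP ratio of mean FPKM (log axis) for the 9 checkpoint genes read in P, with all 8 libraries (black bars) and with each NP (purple) or P (orange) library left out, marker shapes giving the replicate. Leaving out P replicate 3 took Atr from 2.18 to 0.806 and Trp53 from 0.663 to 0.214, and leaving out P replicate 4 took Mdc1 from 1.64 to 0.449.

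The order of the levels in NP ran from Trp53bp1 through Chek1, Mdm2, Chek2, Atr, Rad17, Trp53, Trp63 and Mdc1 to Atm. In P it ran from Trp53bp1 through Chek1, Atr, Mdm2, Trp63, Mdc1, Trp53 and Rad17 to Atm, with Chek2 last. In both datasets Trp53bp1 stood apart from Chek1 without overlap of the libraries. All other neighbours in NP overlapped, and in P all others did except Atm and Chek2.

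Stored oocyte mRNAs are known to be recruited to polysomes at meiotic resumption through the cytoplasmic polyadenylation element, read by the protein Cpeb1 in the 3′ UTR near the poly(A) signal. The last 100 bases of the annotated 3′ UTR were therefore searched on the mRNA strand for the element (TTTTAT or TTTTAAT) and for the signal (AATAAA or ATTAAA), in 1 transcript per gene of the GENCODE annotation of GRCm38. Of the 10 checkpoint genes, 1 had the element and 8 the signal, compared with 18.8% and 80.2% of 11644 genes tested. Trp53 is shown as the gene with the element, Chek2 as the gene not read in P and Trp53bp1 as the highest one. Each run of 30 bases is written 5′ to 3′ on the mRNA strand with the motif in capitals, TTTTAT for Trp53, ATTAAA for Chek2 and AATAAA for Trp53bp1, and lies in the 3′ UTR at chr11:69591814-69591843 (plus strand), chr5:110874105-110874134 (plus strand) and chr2:121194840-121194869 (minus strand) of GRCm38.
Trp53: ttttttacccctTTTTATatatcaatttcc
Chek2: aaacacataatcATTAAAaagaatattcta
Trp53bp1: cagtaagcactcAATAAAgacttcaattat
The annotated transcript of Chek2 used here reaches past the gene end of 110874133 given with the FPKM values. A match is a description of the annotated end, and the ends used in these oocytes were not measured here.

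The genes around the checkpoint were described with 5 lists of 87 genes, of which 80 were tested. None was called (limma, Benjamini-Hochberg over all genes, lowest adjusted p = 0.376), 4 had an unadjusted p below 0.05, where 9.95% of all genes did, and 3, namely Prkdc, Rchy1 and Zmat3, were called lower in P by limma-voom on the recovered reads, where 1.45% of all genes were. The log2 fold change was below 0 for 57 and above 0 for 23, where 71.4% of all genes lay below 0, with a median of −0.42 against −0.39 for all genes. All NP libraries exceeded all P libraries for 7 of the 80 genes, against 5.92% of all genes, and the opposite was found for 0.

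Among 14 tested genes for the clamp, for the single-strand binding protein RPA and for Atr activation, the median log2 fold change was −0.092, and Hus1b was at 0 in all libraries. The most abundant were Rpa2, with 61.6 ± 42.5 FPKM in NP and 103 ± 88.0 in P, Rad9, a clamp subunit, with 72.3 ± 43.0 and 30.6 ± 18.9, and Rpa1, with 58.4 ± 6.65 and 44.2 ± 19.1 (SD, n = 4 each). The P/NP ratio of Rpa2, 1.68, became 0.979 without P replicate 1. Of 20 genes for sensing breaks with Atm, 15 lay below 0, with a median of −0.38, near the 71.4% and −0.39 of all genes. Here H2afx, the histone variant phosphorylated at breaks, had 85.0 ± 42.8 FPKM in NP and 65.2 ± 22.9 in P, and the ubiquitin ligase Rnf8 46.1 ± 8.19 and 64.7 ± 34.4. Xrcc5, a Ku subunit that binds broken ends, had 64.4 ± 64.7 in NP and 32.7 ± 6.97 in P (SD, n = 4), a ratio of 0.508 that became 0.989 without NP replicate 1. Prkdc, the catalytic subunit of the DNA-dependent protein kinase and a relative of Atm and Atr, was chosen after its values had been seen. It had 5.70 ± 3.66 FPKM in NP and 0.0352 ± 0.0592 in P, did not overlap, and was called by limma-voom (adjusted p = 0.00566) but not by limma (adjusted p = 0.376). Its ratio of 0.00618 became 0.00104 without P replicate 2.

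Of 15 regulators of the p53 family, 10 lay below 0, where 71.4% of all genes did. In 4 of them, namely Rchy1, Csnk1e, Rps27l and Trp73, all NP libraries lay above all P libraries, where 5.92% of all genes did so, and the last 2 are named after their values had been seen. Rchy1, another ubiquitin ligase for p53, had an FPKM of 508, 317, 337 and 1683 in NP and of 112, 195, 25.9 and 118 in P. The datasets did not overlap, and the difference was −2.59 (standard error 0.73) on the log2 scale. The adjusted p was 0.376 with limma and 0.0956 with limma-voom, and the ratio of the means moved from 0.158 to 0.291 without NP replicate 4. Csnk1e, a casein kinase, had 153 ± 91.8 FPKM in NP and 64.9 ± 20.4 in P (SD, n = 4, limma adjusted p = 0.53). Mdm4, the partner of Mdm2, had 256 ± 151 FPKM in NP and 223 ± 106 in P (SD, n = 4), a ratio of 0.871 that became 1.08 without NP replicate 4. Mdm4 was thus far more abundant than Mdm2 in both datasets, and its libraries overlapped between them.

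Of 17 tested p53 target genes, 12 lay below 0, near the 71.4% of all genes, with a median of −0.63. The most abundant were Trp53inp1, with 21.3 ± 6.90 FPKM in NP and 42.3 ± 57.0 in P, Ei24, with 22.6 ± 17.2 and 33.0 ± 26.5, and Tigar, listed under an older symbol, with 13.2 ± 6.01 and 37.3 ± 26.8 (SD, n = 4 each). For Trp53inp1 the ratio of 1.98 became 0.65 without P replicate 3, which had an FPKM of 128. For Ei24 that of 1.46 became 1.03 without P replicate 2 and 2.33 without NP replicate 3. Eda2r and Fas, a death receptor, were at 0 in all 8 libraries. Zmat3, chosen after its values had been seen, was at 0 in all P libraries with 1.54 ± 2.15 FPKM in NP, and 0.474 without NP replicate 1.

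Of 14 genes through which the checkpoint acts on the cell cycle, 12 lay below 0, against 71.4% of all genes, with a median of −0.73 against −0.39. Ccnb1, which encodes cyclin B1, had 1287 ± 306 FPKM in NP and 840.5 ± 388 in P, the oocyte kinase Wee2 had 628 ± 334 and 421 ± 289, and Plk1 had 413 ± 225 and 401 ± 157 (SD, n = 4 each). The libraries of the datasets overlapped for all 3. The ratio of Wee2, 0.67, became 0.444 without P replicate 3 and 0.89 without NP replicate 4. That of Plk1, 0.972, became 0.787 without P replicate 4 and 1.27 without NP replicate 2. Cdc25c, a phosphatase restrained by Chek1 and Chek2 and chosen after its values had been seen, had 2.42, 18.2, 7.64 and 31.2 FPKM in NP and 0.329, 0.321, 0.927 and 0.962 in P. No NP value overlapped those of P, and the difference was −2.86 on the log2 scale of P over NP (standard error 0.91, limma adjusted p = 0.405). The ratio of its means was 0.0427, and 0.0673 without NP replicate 4.

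**Figure D4:**
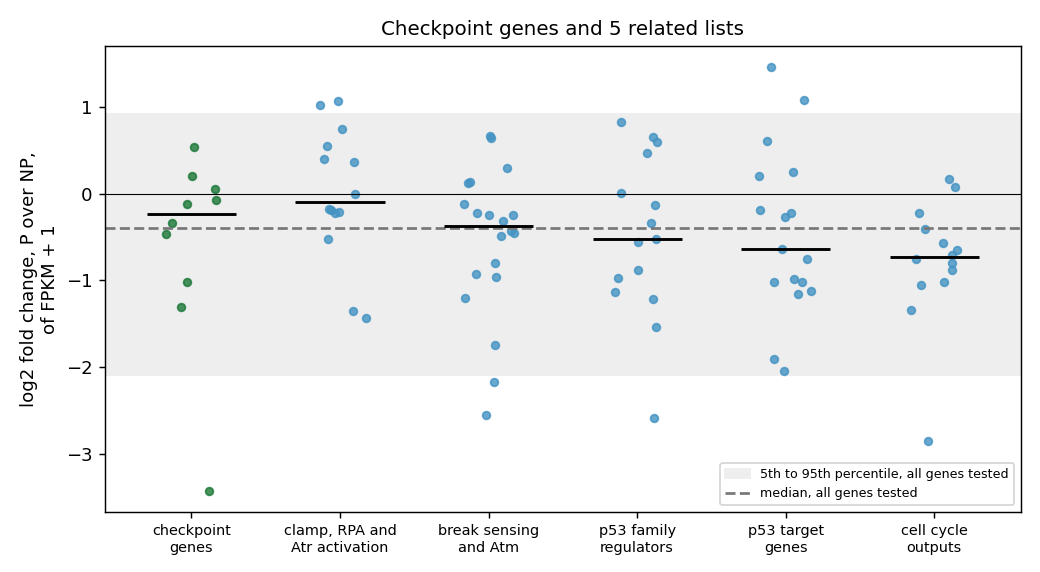
Log2 fold change of P over NP on the FPKM + 1 scale for the 10 checkpoint genes (green) and for the tested genes of 5 related lists (blue), with list medians as black bars. The grey band and dashed line show the 5th to 95th percentile and the median of all genes tested, and the list medians lie between −0.73 and −0.092.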

How the data were processed

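RNA-seq was measured in 4 NP and 4 P libraries, grouped by their titles. After removal of ribosomal RNA, cDNA was amplified over the whole transcriptome, which can add spread to rare transcripts. Per the submitters' notes, Trim Galore 0.4.1 was used for trimming, HISAT2 2.0.5 for mapping to GRCm38 and Seqmonk for FPKM per gene. The deposited FPKM values of the authors, not counts, were used as they are. The deposited means and the authors' own table of fold changes and p values were not used. Reads were recovered as whole multiples (tolerance 0.01 of a step plus 2e-06 of the count) with the annotated exon length or, for Atr, Chek1, Chek2, Mdm2 and Rad17, the shortest length from 100 to 30000 bp giving whole numbers in all libraries. Recovery held for 13997 genes and 97.6% of values above 0, a share that the search partly fixes.

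P and NP were compared with limma 3.58.1 in R 4.3.3 (lmFit, eBayes with a trend, 2-sided) on log2(FPKM + 1), keeping genes whose mean exceeded 0.1 FPKM in either dataset, with a Benjamini-Hochberg threshold of 0.1. The script was tested on simulated data. Figures and summaries were made with Python 3.11.15. The checkpoint genes and lists were chosen with earlier results of these data known, so no list was tested as a set. Named genes were the 10 members, the 3 most abundant genes of each related list, any of these called, and the 3 genes most like the most abundant member; exceptions are marked. Alternatives were the pseudocount, filters, 2 scalings, a replicate block, limma-voom and leaving out libraries.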

Additional observations from a re-analysis of the deposited data

Results flagged for a closer look

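A library stood far from the other 3 of its dataset in 4 of the 19 groups of 4 FPKM values examined. The cut-off is meant to mark about 1 in 20 groups, but that rate was not checked for linear FPKM values. All 4 flagged libraries were the highest of their group. The share flagged over all genes is not given here, so the count is a description and not an excess. For Trp53bp1, P replicate 3 had an FPKM of 155 and the other P libraries lay between 66.0 and 73.5. For Mdc1, P replicate 4 had 22.2 and the others lay between 0.401 and 3.43. For Rad17, NP replicate 4 had 24.2 and the others lay between 4.73 and 7.57. For Chek1, NP replicate 3 had 51.7 and the others lay between 22.0 and 26.9.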

How the results depend on the processing

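Of the 10 log2 fold changes, those of Chek2, Trp53 and Rad17 kept their sign under all 15 alternatives, although Trp53 and Rad17 were at −0.057 and −0.35 under median centring, and Chek2 passed the threshold under limma-voom alone (log2 fold change −7.59). Signs turned for Atm, Chek1, Mdm2 and Mdc1 under median centring (0.62, 0.84, 0.49 and 0.88), for Atm, Chek1 and Mdc1 under quantile normalization (0.45, 0.20 and 0.72), for Atr with a pseudocount of 0.1 (−0.049) and, under limma-voom, for Atr (−0.081) and Trp63 (−0.81). The median of all genes was −0.83 with a pseudocount of 0.1 and −0.93 under limma-voom. The cause of the turned signs was not tested. Without single libraries the range was −0.84 to 0.70 for Atr, −0.35 to 0.16 for Chek1, −0.86 to 0.49 for Mdc1, −0.045 to 1.51 for Trp63, −0.089 to 0.32 for Trp53bp1, −0.59 to −0.052 for Atm, −0.89 to −0.13 for Mdm2, −1.72 to −0.39 for Trp53, −1.68 to −0.63 for Rad17 and −4.23 to −3.08 for Chek2, the values nearest to 0 for Trp53 and Rad17 being those without P replicate 4.

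The median of the checkpoint genes, −0.23, became 0.73 under median centring and lay between −0.53 and 0.04 without single libraries. No checkpoint or related gene was called under the alternatives on FPKM values, while limma-voom called 1 and 3. Over all genes, limma called 3, and 5 with a pseudocount of 0.1 or with a mean FPKM above 1, 0 without a filter, under median centring or under quantile normalization, 195 with limma-voom, and between 0 and 5 without single libraries, 0 without any 1 NP library or P replicate 3 and 5 without P replicate 1. Same-numbered NP and P libraries deviated together with correlations of 0.0518 to 0.251, against −0.135 to 0.136 for other numbers. Of the 4 same-number correlations, 3 exceeded all 12 others, and 7 of the 8 libraries correlated best with their own number, a hint from the data that numbers may mark the profile. No source ties a number to a profile and not every pair exceeded 0.1, so the main test left the pairing out. With the replicate block, 1 gene was called over all genes and no checkpoint gene. The Chek2 value of NP replicate 2 rests on 3 reads, where 1 read stood for 0.343 FPKM.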
